A study of Mus musculus with 12 samples.

Results

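Thioredoxin, its reductase and the peroxiredoxins, together with catalase, superoxide dismutases and a sestrin, form the enzymes and helpers by which a cell removes superoxide and peroxides. The 10 genes described here were taken by name from the 25683 genes in each count table: Txn1, Txnrd1, Srxn1, Prdx1, Prdx5, Prdx6, Cat, Sod1, Sod2 and Sesn1. The rule names the genes and sets no limit on a measured value, and all 10 passed the filter on low counts. They were measured in J774.1 cells, a macrophage-like mouse line of BALB/c origin. The 6 groups of 2 libraries were GATA3-KO cells with isorhamnetin or with DMSO, Rictor-KO cells with isorhamnetin or with DMSO, and unedited (WT) cells with isorhamnetin or with DMSO. Isorhamnetin, a methylated plant flavonol, was given at 10 µM, and both treatments lasted 6 h, with DMSO as its solvent control. Rictor is a scaffold protein that mTORC2, a kinase complex, cannot do without, and GATA3 is a transcription factor known mainly from lymphocytes. Nothing in the labels says that the 2 libraries of a group came from separate cultures. Whether the spread between them is technical or includes differences between cultures is therefore not known. Each knockout has 1 label, called a line here, and the number of clones behind it is not known. The edited gene and the history of the line cannot be told apart.

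Superoxide made by the phagocyte oxidase or by mitochondria is turned into hydrogen peroxide by superoxide dismutases. Among other enzymes, catalase in peroxisomes and peroxiredoxins there and elsewhere remove hydrogen peroxide. A peroxiredoxin such as Prdx1 is oxidised at a cysteine in each cycle and is reset by thioredoxin, which thioredoxin reductase recharges with electrons from NADPH. When the cysteine of such a peroxiredoxin is oxidised too far, sulfiredoxin repairs it. Prdx6 works with glutathione instead. The transcription factor NRF2 drives several of these genes through a short promoter motif, the antioxidant response element (ARE).

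Promoter windows are shown for Srxn1, Txnrd1 and Cat, the members whose exon reads rose with isorhamnetin in every line, and for Prdx1, which rose in 2 of the 3 lines. Sod1 also rose in 2 of the 3 lines, but its window is not shown. The core letters of the ARE were searched as TGACNNNGC or TGAGNNNGC, on both strands, in the 250 bases before each RefSeq start site (build GRCm38.p6). Of the 10 members, 9 had an entry, with 12 windows, and Prdx6 is named only. A match was found in 4 windows, of Srxn1, Txnrd1, Prdx1 and Sod1, and 23.0% of all 32851 windows hold one. Each window below reads 5′ to 3′ on the gene's own strand, with matches in capitals and with bases of annotated exons cut from its 3′ end.
Srxn1, chr2:152105274-152105515, plus strand: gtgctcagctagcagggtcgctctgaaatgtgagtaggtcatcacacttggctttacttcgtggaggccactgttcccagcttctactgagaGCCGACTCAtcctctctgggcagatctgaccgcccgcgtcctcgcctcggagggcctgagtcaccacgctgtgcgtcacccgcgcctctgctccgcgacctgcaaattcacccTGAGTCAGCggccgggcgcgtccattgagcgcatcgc
Txnrd1, chr10:82858956-82859178, plus strand: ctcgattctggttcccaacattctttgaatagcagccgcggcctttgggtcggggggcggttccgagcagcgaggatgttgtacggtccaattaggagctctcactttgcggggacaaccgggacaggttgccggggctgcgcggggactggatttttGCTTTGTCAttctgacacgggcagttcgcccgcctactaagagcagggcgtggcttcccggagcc
Prdx1, chr4:116685349-116685543, plus strand: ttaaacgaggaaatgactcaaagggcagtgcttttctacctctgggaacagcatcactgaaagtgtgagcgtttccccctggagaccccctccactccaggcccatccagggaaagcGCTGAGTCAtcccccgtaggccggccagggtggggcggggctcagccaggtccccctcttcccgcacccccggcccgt
Cat, chr2:103485161-103485403, minus strand: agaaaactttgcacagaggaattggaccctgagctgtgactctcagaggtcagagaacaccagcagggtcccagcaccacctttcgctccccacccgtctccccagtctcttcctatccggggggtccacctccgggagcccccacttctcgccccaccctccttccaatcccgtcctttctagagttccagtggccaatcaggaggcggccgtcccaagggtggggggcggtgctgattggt
The Srxn1 window held 2 matches. One, TGAGTCAGC, lay 36 bases before the start site on the gene's strand, and the other, TGAGTCGGC, lay 149 bases before it on the opposite strand. The Prdx1 match, TGACTCAGC, lay 124 bases before the start site on the opposite strand. The Txnrd1 match, TGACAAAGC, lay 83 bases before the start site of the second of its 3 listed windows, on the opposite strand. The Sod1 match, TGACCACGC, lay 47 bases before the start site, also on the opposite strand. Of these 5 matches, 2 (TGAGTCAGC of Srxn1 and TGACTCAGC of Prdx1) also hold TGANTCA, the letters that AP-1 factors bind. The Cat window held no match, nor did those of Txn1, Prdx5, Sod2 and Sesn1, which says only that the letters are not in those bases. The FoxO letters GTAAACA were in 3.17% of all windows and in none of the members'.

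Libraries held 35671457 to 53099804 exon reads and 2251701 to 3510219 intron reads. Levels are exon reads scaled to library size (counts-per-million, CPM). Rictor was at 28.5 and 27.6 CPM in GATA3-KO with isorhamnetin and 36.2 and 32.3 CPM with DMSO, at 23.0 and 23.9 CPM in Rictor-KO with isorhamnetin and 34.3 and 31.2 CPM with DMSO, and at 46.0 and 43.7 CPM in WT with isorhamnetin and 60.8 and 63.0 CPM with DMSO. Gata3 was at 0.282 to 0.498 CPM in GATA3-KO, 0.331 to 0.707 CPM in Rictor-KO and 0.814 to 1.6 CPM in WT. Every knockout library held less of both RNAs than every WT library, so these levels do not tell the knockout lines from each other. All 10 macrophage markers searched had reads in WT, while Mrc1 was at 0 in GATA3-KO with isorhamnetin and in all Rictor-KO libraries. Their summed level was 2552 to 2583 CPM with isorhamnetin and 3004 to 3153 CPM with DMSO in GATA3-KO, 3120 to 5287 and 2913 to 5211 CPM in Rictor-KO, and 6360 to 6972 and 10670 to 10875 CPM in WT. Under DMSO and against WT, edgeR called 7 of the 10 lower in GATA3-KO and 6 in Rictor-KO, where 27.1% and 20.7% of all genes were lower. With isorhamnetin 3 fell in GATA3-KO and 0 in Rictor-KO, where 15.9% and 0.483% of all genes fell. The Rictor-KO count was 2 at an unadjusted p under 0.05 and 0 by DESeq2. In WT 4 fell and 1 rose, where 18.3% of all genes fell and 19.8% rose. The part of these shifts in the members' values was not tested. Of the markers of other cell types, the 4 epithelial ones had no read in any library, and each summed list of T cell, B cell, fibroblast or neutrophil markers reached at most 4.75 CPM in a library. The Rictor-KO libraries differed from each other: Lyz2, a macrophage lysozyme, was at 2450 and 788 CPM with isorhamnetin and at 2440 and 616 CPM with DMSO. It was at 190 to 271 CPM in GATA3-KO and at 2951 to 5505 CPM in WT. The 10 genes of a list of inflammatory cytokines and NF-kB targets summed to 766 to 1108 CPM over all knockout libraries. In WT they summed to 581 to 1207 CPM with isorhamnetin and to 9712 to 11491 CPM with DMSO.

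The members covered a wide range of levels per length. Over the 12 libraries Sod1, the cytosolic copper-zinc superoxide dismutase, averaged 469 CPM per kb of exon, Prdx1, an abundant cytosolic peroxiredoxin, 387 CPM per kb, and Txn1, cytosolic thioredoxin, 385 CPM per kb. Txnrd1, the cytosolic thioredoxin reductase, averaged 137 CPM per kb. Prdx5, a peroxiredoxin of mitochondria, peroxisomes and cytosol, averaged 104 CPM per kb and Prdx6, a peroxiredoxin with a single catalytic cysteine, 81.5 CPM per kb. Srxn1, sulfiredoxin, at 47.3 CPM per kb and Cat, catalase, at 45.9 CPM per kb lay close together. Sod2, the mitochondrial manganese superoxide dismutase, averaged 21.8 CPM per kb and Sesn1, a stress-induced regulator of mTORC1, 5.23 CPM per kb. The highest library exceeded the lowest 7.19-fold for Srxn1 and 4.66-fold for Cat, but 1.32-fold for Prdx6.

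**Figure D1:**
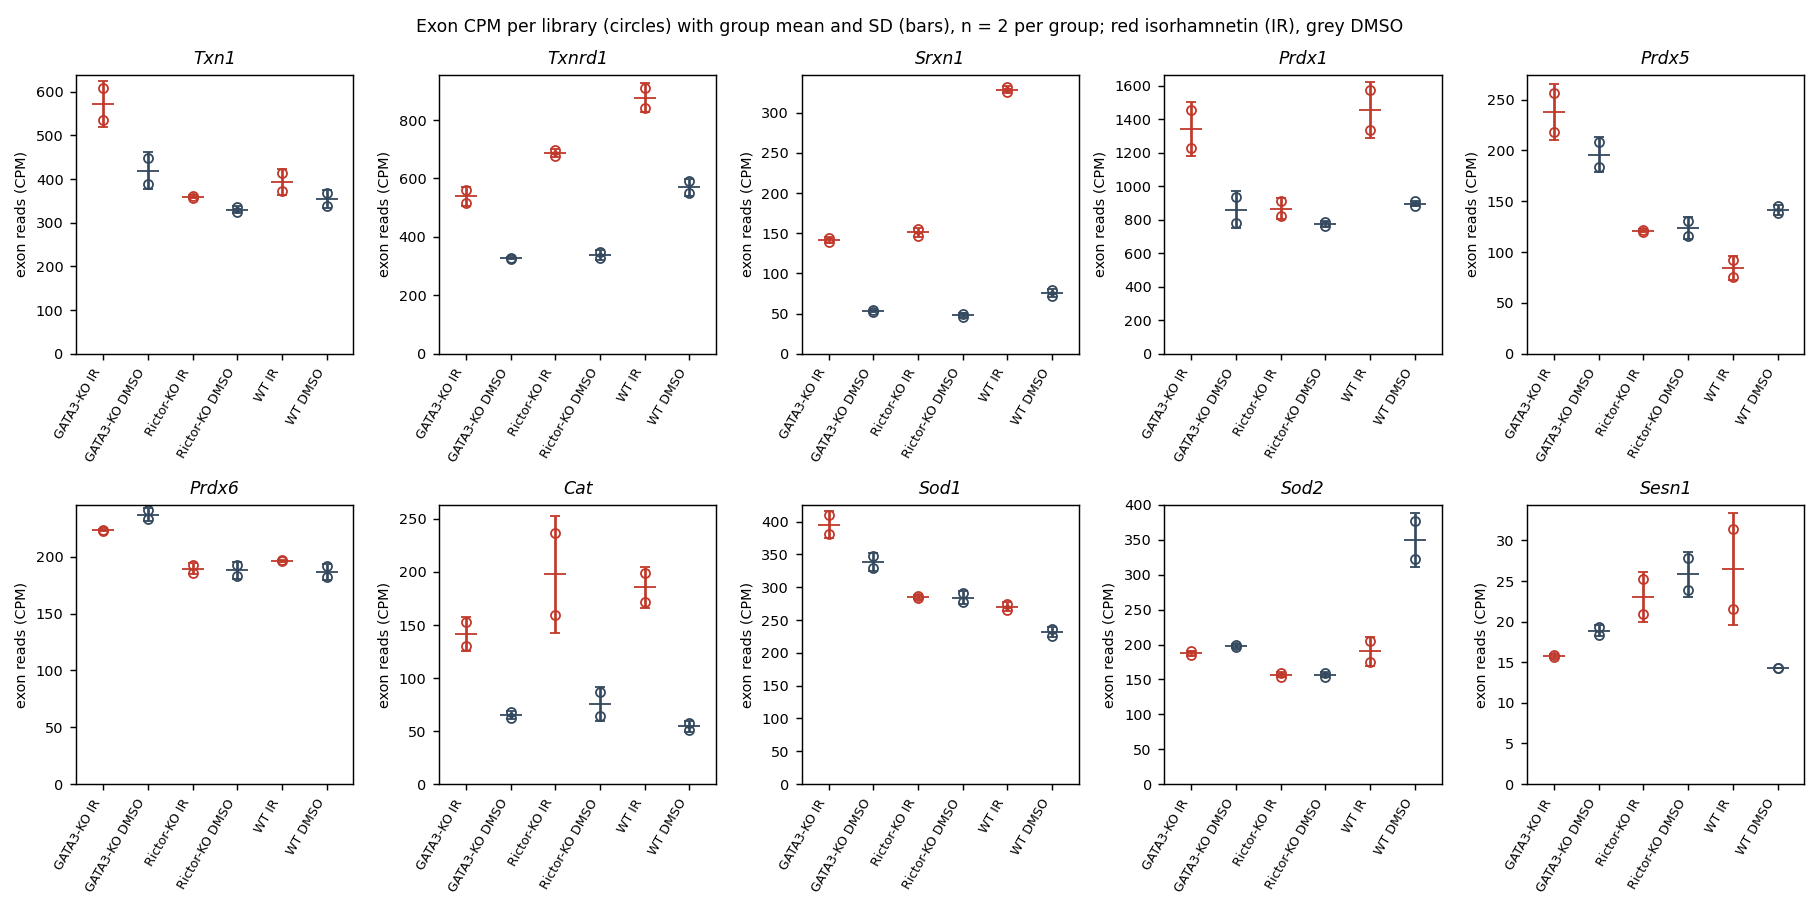
Exon reads of each member in CPM (linear axes from 0) for the 12 libraries, by line and treatment, with isorhamnetin in red and DMSO in grey. Circles are libraries and bars the group mean and SD (n = 2). Srxn1 reaches 326 and 332 CPM in WT with isorhamnetin and stays at or under 155 CPM in every other library, while Prdx6 lies between 182 and 241 CPM throughout.

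With isorhamnetin, Srxn1, Txnrd1 and Cat rose in all 3 lines, with folds of 1.54 to 4.34. Prdx1 and Sod1 rose in GATA3-KO and in WT, and Txn1 rose in GATA3-KO. Sesn1 rose in WT, and Prdx5 and Sod2 fell in WT. Prdx6 passed the test in none of the lines. In GATA3-KO this made 6 members higher and 0 lower, where 26.2% of the 11808 genes tested passed in either direction (10.2% higher, 15.9% lower). In Rictor-KO it made 3 higher and 0 lower, where 1.91% of genes passed (1.43% higher, 0.483% lower). In WT it made 6 higher and 2 lower, where 38.1% of genes passed (19.8% higher, 18.3% lower). The median log2 fold change of the 10 members was 0.36 in GATA3-KO, 0.07 in Rictor-KO and 0.42 in WT, beside medians over all genes of 0.00, -0.01 and 0.01. In the GATA3-KO comparison the count of members fell to 3 without the first DMSO library, and that of all genes to 549 without that library or to 544 without the second isorhamnetin library, against 3092 with all. In Rictor-KO all genes called came to 143 without its first isorhamnetin library and 147 without its second DMSO library, against 226, and in WT to 2567 without the second isorhamnetin library and 2785 without the second DMSO library, against 4493. At an unadjusted p under 0.05, and by DESeq2, 0 members were lower in either knockout, and 7 were higher in GATA3-KO by either. The authors' deposited tables, at their false discovery rate under 0.05, hold 5 members higher in GATA3-KO, 3 higher in Rictor-KO, and 6 higher and 2 lower in WT.

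Srxn1 repairs over-oxidised peroxiredoxins. It was at 144 and 139 CPM with isorhamnetin and at 52.1 and 54.3 CPM with DMSO in GATA3-KO, and at 147 and 155 CPM with isorhamnetin and 50.0 and 46.2 CPM with DMSO in Rictor-KO. In WT it was at 332 and 326 CPM with isorhamnetin and at 72.2 and 79.2 CPM with DMSO. Every library with isorhamnetin lay above every library with DMSO, whichever the line, and the WT isorhamnetin libraries stood above the rest. The log2 fold change was 1.41 (SE 0.08, edgeR adjusted p = 2.8e-07) in GATA3-KO, 1.65 (SE 0.08, edgeR adjusted p = 5.59e-08) in Rictor-KO and 2.12 (SE 0.08, edgeR adjusted p = 1.84e-09) in WT. These RNAs were read from bulk cultures, where fewer cells and less RNA per cell cannot be told apart.

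Txnrd1 recharges thioredoxin. It was at 562 and 515 CPM with isorhamnetin and at 329 and 324 CPM with DMSO in GATA3-KO, and at 697 and 677 CPM with isorhamnetin and 349 and 327 CPM with DMSO in Rictor-KO. In WT it was at 911 and 841 CPM with isorhamnetin and at 550 and 591 CPM with DMSO. Within each line the treatments did not overlap, but the WT DMSO libraries reached the range of GATA3-KO with isorhamnetin. The log2 fold change was 0.72 (SE 0.08, edgeR adjusted p = 0.000171) in GATA3-KO, 1.02 (SE 0.08, edgeR adjusted p = 6.12e-06) in Rictor-KO and 0.62 (SE 0.08, edgeR adjusted p = 4.97e-05) in WT. In descending order of group mean, WT with isorhamnetin and Rictor-KO with isorhamnetin stood apart from each other and from the rest, and the DMSO groups of Rictor-KO and GATA3-KO, at the bottom, overlapped.

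Txn1, the electron donor itself, was at 535 and 609 CPM with isorhamnetin and at 389 and 449 CPM with DMSO in GATA3-KO. It was at 362 and 357 CPM with isorhamnetin and 324 and 336 CPM with DMSO in Rictor-KO, and at 415 and 372 CPM with isorhamnetin and 339 and 368 CPM with DMSO in WT. The GATA3-KO isorhamnetin libraries were the highest of all, and the isorhamnetin libraries exceeded the DMSO ones by small margins in the other lines. Txn1 rose in GATA3-KO by a log2 fold change of 0.45 (SE 0.1, edgeR adjusted p = 0.00485). That call was lost without the first DMSO library (adjusted p = 0.0671) or without the second isorhamnetin library (adjusted p = 0.0835) of GATA3-KO. The log2 fold changes of 0.12 in Rictor-KO (SE 0.1, edgeR adjusted p = 0.633) and 0.15 in WT (SE 0.1, edgeR adjusted p = 0.229) did not pass.

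**Figure D2:**
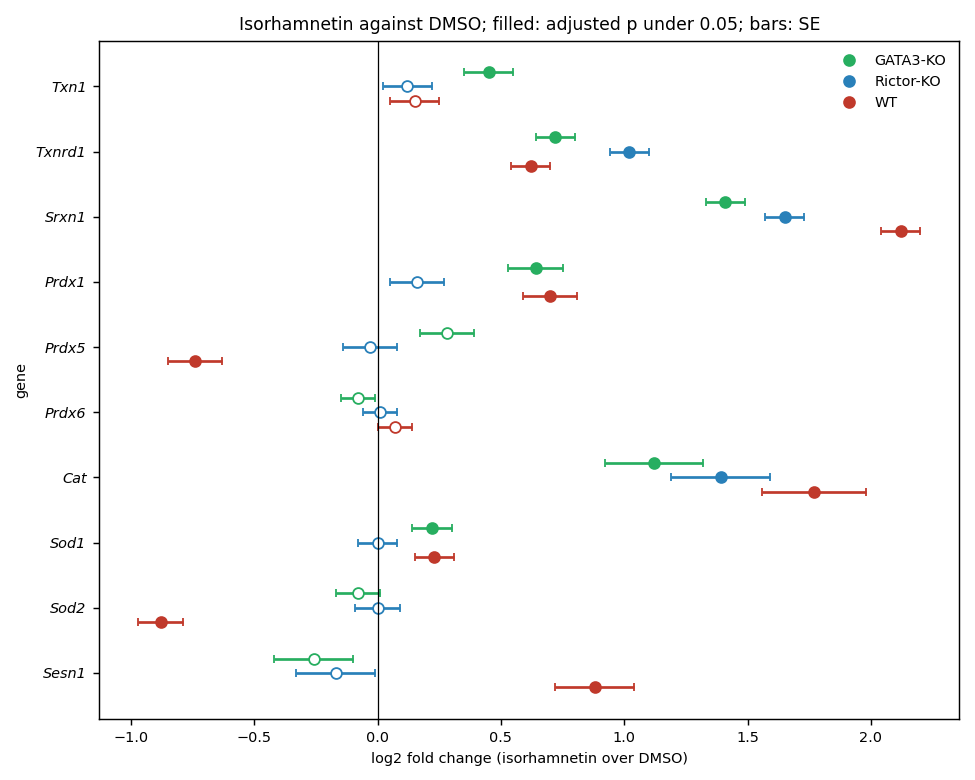
Log2 fold change of isorhamnetin over DMSO in exon reads for each member in GATA3-KO, Rictor-KO and WT, with bars of 1 SE. Filled points have an edgeR adjusted p under 0.05 (n = 2 libraries per group). Srxn1, Txnrd1 and Cat are filled and right of 0 in all 3 lines, and Prdx5, Sod2 and Sesn1 are filled in WT alone.

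Among the peroxiredoxins, Prdx1, which uses thioredoxin to reduce hydrogen peroxide in the cytosol, was at 1228 and 1458 CPM with isorhamnetin and at 781 and 938 CPM with DMSO in GATA3-KO. It was at 824 and 910 CPM with isorhamnetin and 763 and 788 CPM with DMSO in Rictor-KO, and at 1575 and 1338 CPM with isorhamnetin and 885 and 910 CPM with DMSO in WT. The isorhamnetin libraries of GATA3-KO and of WT overlapped each other and stood above all other libraries. Prdx1 rose by a log2 fold change of 0.64 in GATA3-KO (SE 0.11, edgeR adjusted p = 0.0017) and of 0.70 in WT (SE 0.11, edgeR adjusted p = 0.00023). In Rictor-KO the log2 fold change was 0.16 (SE 0.11, edgeR adjusted p = 0.574).

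Prdx5 was at 218 and 257 CPM with isorhamnetin and at 184 and 208 CPM with DMSO in GATA3-KO. It was at 122 and 120 CPM with isorhamnetin and 131 and 116 CPM with DMSO in Rictor-KO, and at 92.7 and 75.9 CPM with isorhamnetin and 145 and 138 CPM with DMSO in WT. The lowest 2 of all libraries were those of WT with isorhamnetin, and all GATA3-KO libraries lay above those of the other lines. Prdx5 fell in WT, with a log2 fold change of -0.74 (SE 0.11, edgeR adjusted p = 0.00013). The log2 fold changes of 0.28 in GATA3-KO (SE 0.11, edgeR adjusted p = 0.0758) and -0.03 in Rictor-KO (SE 0.11, edgeR adjusted p = 0.952) did not pass. The GATA3-KO value passed by DESeq2 (adjusted p = 0.0473) and, by edgeR, without the first isorhamnetin library of that line (adjusted p = 0.0382), and with the second DMSO library left out its adjusted p was 0.05. Prdx5 shares 409 bases with Trmt112 on the opposite strand, and whether the counting used strand is not given in the sources used here. Trmt112 did not pass in any line, with log2 fold changes of 0.00 in GATA3-KO, -0.08 in Rictor-KO and 0.08 in WT. Of Prdx5 exon reads, 95.8% to 97.0% were unique, against at least 99.9% for the other members.

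Prdx6, which reduces phospholipid peroxides with the help of glutathione, was at 223 and 224 CPM with isorhamnetin and at 233 and 241 CPM with DMSO in GATA3-KO. In Rictor-KO it was at 193 and 186 CPM with isorhamnetin and at 183 and 193 CPM with DMSO, and in WT at 197 and 196 CPM with isorhamnetin and at 192 and 182 CPM with DMSO. The Rictor-KO and WT libraries all lay between 182 and 197 CPM, and those of GATA3-KO stood above them under both treatments. The log2 fold changes of -0.08 in GATA3-KO, 0.01 in Rictor-KO and 0.07 in WT (SE 0.07 each, edgeR adjusted p = 0.433, 0.986 and 0.459) did not pass.

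Cat breaks down hydrogen peroxide without a reductant. It was at 153 and 130 CPM with isorhamnetin and at 67.7 and 62.2 CPM with DMSO in GATA3-KO, and at 237 and 159 CPM with isorhamnetin and 86.7 and 64.1 CPM with DMSO in Rictor-KO. In WT it was at 172 and 199 CPM with isorhamnetin and at 57.8 and 50.9 CPM with DMSO. All isorhamnetin libraries lay above all DMSO libraries, and the first Rictor-KO library of each treatment was well above the second, as it was for Lyz2. Whether the difference between those libraries has a part in the Cat values was not tested. The log2 fold change was 1.12 (SE 0.2, edgeR adjusted p = 0.00484) in GATA3-KO, 1.39 (SE 0.2, edgeR adjusted p = 0.00786) in Rictor-KO and 1.77 (SE 0.21, edgeR adjusted p = 0.000154) in WT. The call in GATA3-KO was lost without its first DMSO library (log2 fold change 1.21, adjusted p = 0.081). That in Rictor-KO held without each library in turn, but at its weakest only just passed the threshold. The log2 fold change was 1.08 without its first isorhamnetin library and 1.65 without its second. The Rictor-KO call was lost when only the 4 Rictor-KO libraries entered the fit (log2 fold change 1.40, edgeR adjusted p = 0.195).

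The superoxide dismutases did not move together. Sod1 was at 381 and 410 CPM with isorhamnetin and at 329 and 348 CPM with DMSO in GATA3-KO, at 287 and 283 CPM with isorhamnetin and 277 and 291 CPM with DMSO in Rictor-KO, and at 266 and 275 CPM with isorhamnetin and 226 and 237 CPM with DMSO in WT. All GATA3-KO libraries lay above all others, and the WT DMSO libraries lay below all others. Sod1 rose by small amounts, with log2 fold changes of 0.22 in GATA3-KO (SE 0.08, edgeR adjusted p = 0.0459) and 0.23 in WT (SE 0.08, edgeR adjusted p = 0.0326), and had 0.00 in Rictor-KO (SE 0.08, edgeR adjusted p = 0.998). The WT call was lost without any 1 of the 4 WT libraries (adjusted p = 0.0762 to 0.187). The call in GATA3-KO did not survive in 8 of the 12 fits that left out 1 library: without the first GATA3-KO DMSO library (adjusted p = 0.216), the second GATA3-KO isorhamnetin library (adjusted p = 0.317), either Rictor-KO isorhamnetin library or any of the 4 WT libraries (adjusted p = 0.057 to 0.0708). It was also lost when only the 4 GATA3-KO libraries entered the fit (adjusted p = 0.0854). Sod1 shares 650 bases with Scaf4 on the opposite strand, and Scaf4 fell where Sod1 rose, with log2 fold changes of -0.53 in GATA3-KO (edgeR adjusted p = 0.00406) and -0.40 in WT (edgeR adjusted p = 0.00932).

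Sod2, which inflammatory signals are known to induce in macrophages, was at 190 and 185 CPM with isorhamnetin and at 196 and 200 CPM with DMSO in GATA3-KO. It was at 154 and 159 CPM with isorhamnetin and 159 and 154 CPM with DMSO in Rictor-KO, and at 205 and 175 CPM with isorhamnetin and 322 and 377 CPM with DMSO in WT. The WT DMSO libraries stood alone above the other 10, among which WT with isorhamnetin overlapped GATA3-KO. Sod2 fell in WT, with a log2 fold change of -0.88 (SE 0.09, edgeR adjusted p = 7.17e-06), and had -0.08 in GATA3-KO (SE 0.09, edgeR adjusted p = 0.566) and 0.00 in Rictor-KO (SE 0.09, edgeR adjusted p = 1.0). Of the 10 genes of the inflammatory list, 10 fell in WT with isorhamnetin, where 18.3% of all genes fell. In GATA3-KO 2 fell (Tnfaip3 and Icam1), where 15.9% of all genes fell. In Rictor-KO 1 fell (Icam1), where 0.483% of all genes fell. The part of this list in the Sod2 values was not tested.

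Sesn1 had the fewest reads of the members, 488 to 1232 per library. It was at 15.6 and 15.9 CPM with isorhamnetin and at 18.4 and 19.4 CPM with DMSO in GATA3-KO, at 25.2 and 20.9 CPM with isorhamnetin and 27.8 and 23.9 CPM with DMSO in Rictor-KO, and at 21.6 and 31.4 CPM with isorhamnetin and 14.3 and 14.3 CPM with DMSO in WT. WT with isorhamnetin overlapped both Rictor-KO groups, and WT with DMSO was the lowest group. Sesn1 rose in WT by a log2 fold change of 0.88 (SE 0.16, edgeR adjusted p = 0.000611). The values of -0.26 in GATA3-KO (SE 0.16, edgeR adjusted p = 0.244) and -0.17 in Rictor-KO (SE 0.16, edgeR adjusted p = 0.71) did not pass.

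The difference between a knockout's response and that of WT was tested for each member. All such differences share the WT libraries, so they are given side by side. In GATA3-KO minus WT, 2 members were higher and 2 lower, where 28.0% of all genes passed (12.4% higher, 15.5% lower). In Rictor-KO minus WT 3 were higher and 3 lower, where 13.8% passed (6.65% higher, 7.11% lower). Of all genes, 1799 to 1998 passed in GATA3-KO minus WT without any 1 of the first GATA3-KO DMSO, second GATA3-KO isorhamnetin, second WT DMSO or second WT isorhamnetin libraries, against 3303 with all. In Rictor-KO minus WT, 779 passed without the second WT DMSO library and 804 without the second WT isorhamnetin library, against 1624 with all. The Rictor-KO count was 3 in all without the first WT DMSO library or without the first Rictor-KO isorhamnetin library. Srxn1 responded less in both knockouts, by a log2 difference of -0.71 in GATA3-KO (SE 0.11, edgeR adjusted p = 0.000611) and -0.46 in Rictor-KO (SE 0.11, edgeR adjusted p = 0.0144). Sod2 and Prdx5, which fell in WT, had positive differences: 0.80 in GATA3-KO and 0.88 in Rictor-KO for Sod2 (SE 0.13 each), and 1.02 in GATA3-KO and 0.72 in Rictor-KO for Prdx5 (SE 0.16 each). Their adjusted p by edgeR ran between 0.000422 and 0.00718. Sesn1, which rose in WT, had -1.14 in GATA3-KO (SE 0.22, edgeR adjusted p = 0.00236) and -1.05 in Rictor-KO (SE 0.22, edgeR adjusted p = 0.00624).

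For Rictor-KO alone, Txnrd1 responded more than in WT, by 0.41 (SE 0.12, edgeR adjusted p = 0.0318), and Prdx1 less, by -0.54 (SE 0.16, edgeR adjusted p = 0.0351). In GATA3-KO minus WT these were 0.10 for Txnrd1 (SE 0.12, edgeR adjusted p = 0.544) and -0.05 for Prdx1 (SE 0.16, edgeR adjusted p = 0.842). The Rictor-KO calls of Txnrd1, Prdx1 and Srxn1 were lost in 6, 6 and 4 of the 12 fits that left out 1 library. For Txnrd1 these were either WT DMSO library, the second WT isorhamnetin library, the second Rictor-KO DMSO library or either Rictor-KO isorhamnetin library (adjusted p = 0.0542 to 0.162). For Prdx1 they were either WT DMSO library, the first WT isorhamnetin library, either Rictor-KO DMSO library or the first Rictor-KO isorhamnetin library (adjusted p = 0.0515 to 0.135), and for Srxn1 the first WT DMSO, second WT isorhamnetin, first Rictor-KO DMSO or first Rictor-KO isorhamnetin library (adjusted p = 0.0501 to 0.081). Cat had differences of -0.65 in GATA3-KO (SE 0.28, edgeR adjusted p = 0.123) and -0.38 in Rictor-KO (SE 0.28, edgeR adjusted p = 0.447), which did not pass. With the replicate number as a block within each line, both passed (edgeR adjusted p = 0.00144 and 0.031). The GATA3-KO one passed without either Rictor-KO isorhamnetin library (adjusted p = 0.0243 and 0.0247) by DESeq2 (adjusted p = 0.0307) and with the compared groups alone (adjusted p = 0.00745). Txn1 had 0.30 in GATA3-KO (SE 0.14, edgeR adjusted p = 0.119) and 0.4 without the second GATA3-KO DMSO library. With the block Txn1 passed in GATA3-KO minus WT (edgeR adjusted p = 0.00916). So did Sod1 in Rictor-KO minus WT (log2 difference -0.22, edgeR adjusted p = 0.0164).

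Between the knockouts, the response of GATA3-KO minus that of Rictor-KO gave 0 members and 0 of all genes (0.0%) past the threshold by edgeR. At an unadjusted p under 0.05 it gave 3 members and 2711 genes, and DESeq2 called 2 members and 1054 genes. The 3 members were Prdx1, with a log2 difference of 0.48 (SE 0.16, edgeR adjusted p = 0.106), Txn1, with 0.33 (SE 0.14, edgeR adjusted p = 0.172), and Txnrd1, with -0.30 (SE 0.12, edgeR adjusted p = 0.148). DESeq2 called Prdx1 (adjusted p = 0.0241) and Txnrd1 (adjusted p = 0.0468). Without the second GATA3-KO DMSO library, edgeR called Prdx1 as well (log2 difference 0.62, adjusted p = 0.0244) and 1510 of all genes.

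**Figure D3:**
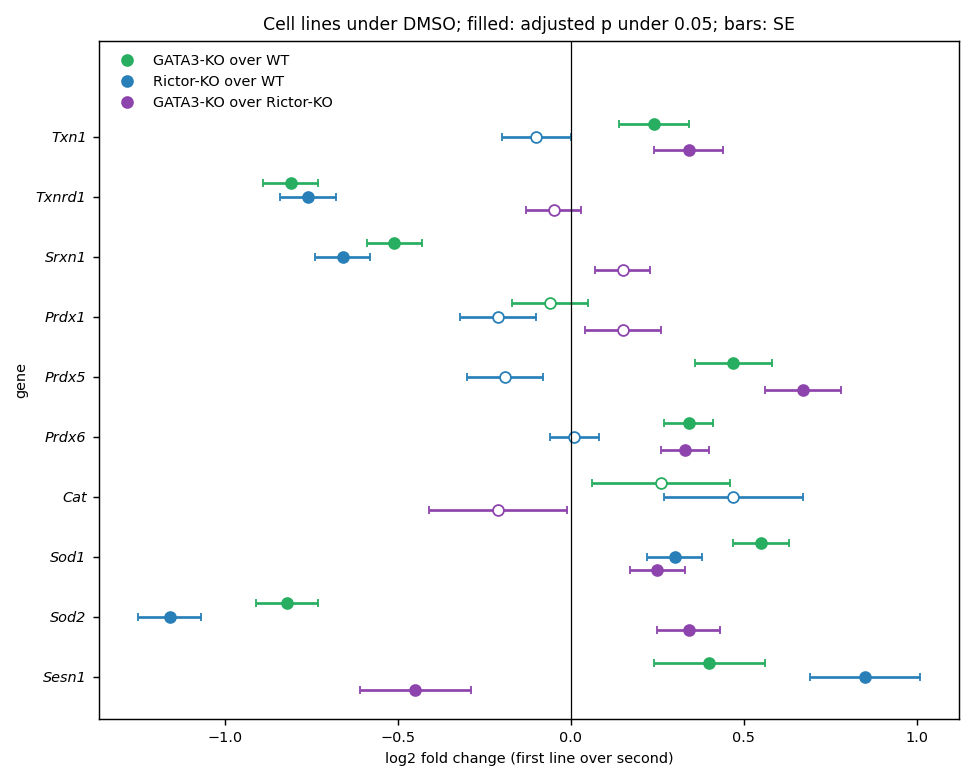
Log2 fold change of exon reads between lines under DMSO for each member: GATA3-KO over WT, Rictor-KO over WT and GATA3-KO over Rictor-KO, with bars of 1 SE. Filled points have an edgeR adjusted p under 0.05 (n = 2 libraries per group). Txnrd1, Srxn1 and Sod2 lie left of 0 in both knockouts against WT, with Sod2 at -1.16 in Rictor-KO.

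Under DMSO the lines already differed. In GATA3-KO against WT, 5 members were higher and 3 lower, where 53.9% of all genes passed (26.8% higher, 27.1% lower). In Rictor-KO against WT 2 were higher and 3 lower, where 40.0% passed (19.3% higher, 20.7% lower). In GATA3-KO against Rictor-KO 5 were higher and 1 lower, where 30.1% passed (15.4% higher, 14.7% lower). Txnrd1 was lower in both knockouts, with log2 fold changes of -0.81 in GATA3-KO (SE 0.08, edgeR adjusted p = 2.31e-06) and -0.76 in Rictor-KO (SE 0.08, edgeR adjusted p = 6.67e-06). Srxn1 was lower by a log2 fold change of -0.51 in GATA3-KO (SE 0.08, edgeR adjusted p = 0.000121) and -0.66 in Rictor-KO (SE 0.08, edgeR adjusted p = 2.19e-05). Sod2 was lower too, with -0.82 in GATA3-KO (SE 0.09, edgeR adjusted p = 6.21e-06) and -1.16 in Rictor-KO (SE 0.09, edgeR adjusted p = 4.7e-07). The 10 genes of the inflammatory list were lower in both knockouts as well, and their part in these values was not tested.

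Sod1 was higher in both knockouts, with a log2 fold change of 0.55 in GATA3-KO (SE 0.08, edgeR adjusted p = 4.1e-05) and 0.30 in Rictor-KO (SE 0.08, edgeR adjusted p = 0.00731). Sesn1 was higher by 0.40 in GATA3-KO (SE 0.16, edgeR adjusted p = 0.0484) and by 0.85 in Rictor-KO (SE 0.16, edgeR adjusted p = 0.000684) on the log2 scale. Prdx5, Prdx6 and Txn1 were higher in GATA3-KO than in WT, by 0.47 (SE 0.11, edgeR adjusted p = 0.00227), 0.34 (SE 0.07, edgeR adjusted p = 0.00126) and 0.24 (SE 0.1, edgeR adjusted p = 0.0433). In Rictor-KO these 3 had values of -0.19, 0.01 and -0.10 against WT, none of which passed. Prdx1 and Cat passed against WT in neither line, with -0.06 and 0.26 in GATA3-KO and -0.21 and 0.47 in Rictor-KO. Cat in Rictor-KO (edgeR adjusted p = 0.0936) passed by DESeq2 (adjusted p = 0.0204), without the second Rictor-KO DMSO library (adjusted p = 0.0386) and without either Rictor-KO isorhamnetin library (adjusted p = 0.0151 and 0.0153). With the libraries of the 2 compared groups alone, Cat passed in GATA3-KO (adjusted p = 0.0435) and in Rictor-KO (adjusted p = 0.0391), and Prdx1 passed in Rictor-KO (adjusted p = 0.0485).

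The smaller of these calls were lost in fits that left out 1 library. In those fits the log2 fold change was 0.26 for Sod1 in Rictor-KO. It was 0.14 to 0.30 for Txn1 and 0.36 to 0.44 for Sesn1 in GATA3-KO. With 1 library left in a group, such a loss does not tell the weight of the missing library from that of fewer data. Sod1 in Rictor-KO was lost without the first WT DMSO library (adjusted p = 0.0728) or the second Rictor-KO DMSO library (adjusted p = 0.0501). Txn1 in GATA3-KO was lost without the first WT DMSO library (adjusted p = 0.245), the second WT DMSO library (adjusted p = 0.0647) or the second GATA3-KO DMSO library (adjusted p = 0.319). Sesn1 in GATA3-KO was lost without any of the 4 GATA3-KO libraries or either WT DMSO library (adjusted p = 0.0602 to 0.169).

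In GATA3-KO against Rictor-KO under DMSO, the higher members were Prdx5 (log2 fold change 0.67, SE 0.11, edgeR adjusted p = 0.000559), Txn1 (0.34, SE 0.1, edgeR adjusted p = 0.0151), Sod2 (0.34, SE 0.09, edgeR adjusted p = 0.0142), Prdx6 (0.33, SE 0.07, edgeR adjusted p = 0.00394) and Sod1 (0.25, SE 0.08, edgeR adjusted p = 0.0238). Sesn1 was lower (log2 fold change -0.45, SE 0.16, edgeR adjusted p = 0.0418). The calls of Prdx5 and Prdx6 held in all 12 fits that left out 1 library. Without the second GATA3-KO DMSO library, 2 members and 1688 of all genes passed, against 6 and 3559 with all, and Txn1 (adjusted p = 0.156), Sod1 (0.143), Sod2 (0.0731) and Sesn1 (0.126) were lost. Without the first Rictor-KO DMSO library, Txn1 (log2 fold change 0.32), Sod1 (0.22) and Sesn1 (-0.34) were likewise lost, as was Sod2 (0.32) without the second. The Sesn1 call was also lost without the first GATA3-KO DMSO library (log2 fold change -0.40). It was lost too without either WT DMSO library or either GATA3-KO isorhamnetin library (log2 fold change -0.45 each). With the libraries of these 2 groups alone, the Sod1 call was lost (edgeR adjusted p = 0.113).

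Intron reads, which come mostly from RNA that is not yet spliced, were 4 to 1473 per member and library. Among the 11450 genes tested in introns, 3 members were higher and 0 lower with isorhamnetin in GATA3-KO, where 1.6% of genes passed (0.437% higher, 1.16% lower). In Rictor-KO 2 were higher and 0 lower, where 0.524% passed (0.41% higher, 0.114% lower), and in WT 4 were higher and 1 lower, where 14.7% passed (7.43% higher, 7.29% lower). At an unadjusted p under 0.05, and by DESeq2, 0 members were lower in the introns of either knockout. Txnrd1 and Cat rose in introns in all 3 lines. Txnrd1 had intron log2 fold changes of 0.85 in GATA3-KO (SE 0.14, edgeR adjusted p = 0.000301), 0.81 in Rictor-KO (SE 0.14, edgeR adjusted p = 0.000629) and 0.46 in WT (SE 0.14, edgeR adjusted p = 0.0177). Cat had 154 and 107 intron reads with isorhamnetin and 4 and 22 with DMSO in GATA3-KO, 96 and 72 with isorhamnetin and 25 and 25 with DMSO in Rictor-KO, and 69 and 68 with isorhamnetin and 30 and 18 with DMSO in WT. The treatments did not overlap in any line. The Cat intron log2 fold changes were 2.68 in GATA3-KO (SE 0.45, edgeR adjusted p = 0.000417), 1.78 in Rictor-KO (SE 0.42, edgeR adjusted p = 0.0312) and 1.56 in WT (SE 0.42, edgeR adjusted p = 0.00952).

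Srxn1 passed in introns in WT, with a log2 fold change of 1.11 (SE 0.25, edgeR adjusted p = 0.00195), and had 0.94 in GATA3-KO (SE 0.27, edgeR adjusted p = 0.068) and 0.98 in Rictor-KO (SE 0.29, edgeR adjusted p = 0.163). Its intron reads numbered 268 and 193 with isorhamnetin and 99 and 129 with DMSO in WT. In WT, Prdx1 rose in introns by 0.69 (SE 0.15, edgeR adjusted p = 0.00142) and Sod2 fell, with -1.15 (SE 0.23, edgeR adjusted p = 0.000399), while Sesn1 had 0.17 (SE 0.26, edgeR adjusted p = 0.741) beside its exon value of 0.88. Txn1 rose in introns in GATA3-KO by 0.65 (SE 0.17, edgeR adjusted p = 0.0391). The difference between exon and intron changes was not tested.

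Several intron calls were lost in fits that left out 1 library. With 1 library left in a group, such a loss does not tell the weight of the missing library from that of fewer data. Txnrd1 was lost in WT without the first WT DMSO, first WT isorhamnetin or second WT isorhamnetin library (adjusted p = 0.0784 to 0.151) and in Rictor-KO without its second DMSO library (adjusted p = 0.0545). Cat was lost in GATA3-KO without its first DMSO library (log2 fold change 2.05, adjusted p = 0.0639), and in WT without its second DMSO library (adjusted p = 0.214) or second isorhamnetin library (adjusted p = 0.0505). In Rictor-KO, Cat was lost without either of its DMSO libraries, its first isorhamnetin library or the first GATA3-KO isorhamnetin library (adjusted p = 0.0518 to 0.321). Srxn1 was lost in WT without the first isorhamnetin library (adjusted p = 0.0746), and Txn1 in GATA3-KO without any 1 of its 4 libraries (adjusted p = 0.121 to 0.421).

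**Figure D4:**
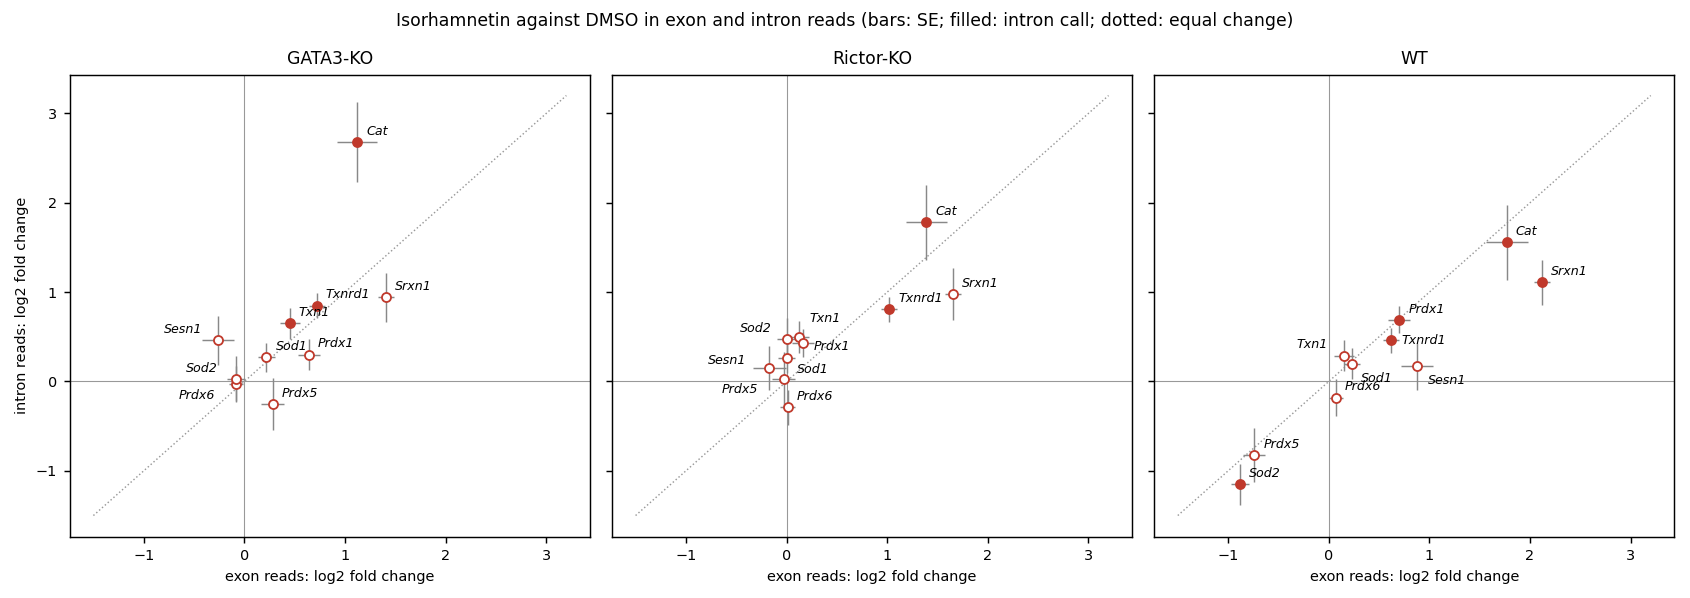
Log2 fold change of isorhamnetin over DMSO in intron reads (vertical) against exon reads (horizontal) for each member in GATA3-KO, Rictor-KO and WT, with bars of 1 SE and a dotted line of equal change. Filled points have an edgeR adjusted p under 0.05 in introns. Cat in GATA3-KO lies at 1.12 in exons and 2.68 in introns, and Srxn1 in WT at 2.12 and 1.11.

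Other genes of the same systems were counted from fixed lists. Of 13 further thioredoxin and peroxiredoxin genes, all tested, 3 rose with isorhamnetin in GATA3-KO, where 10.2% of all genes rose: Txnl1 (log2 fold change 0.37, edgeR adjusted p = 0.0116), the peroxiredoxin Prdx2 (0.37, edgeR adjusted p = 0.027) and Txndc9 (0.30, edgeR adjusted p = 0.0298). In Rictor-KO, where 1.91% of all genes passed, 0 passed by edgeR, 0 at an unadjusted p under 0.05 and 0 by DESeq2. In WT, Nxn, nucleoredoxin, rose (1.42, edgeR adjusted p = 0.00777) at 1.52 to 4.64 CPM, and mitochondrial thioredoxin Txn2 (-0.36, edgeR adjusted p = 0.00165), its reductase Txnrd2 (-0.37, edgeR adjusted p = 0.0192) and Txndc17 (-0.32, edgeR adjusted p = 0.036) fell. In WT this made 1 higher and 3 lower of 13, beside 19.8% and 18.3% of all genes. The medians of this list were 0.10 in GATA3-KO, -0.07 in Rictor-KO and -0.18 in WT.

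Of 9 glutathione peroxidases and glutaredoxins, 7 were tested. The counts of this list and the next stand beside shares of all genes that passed with isorhamnetin in either direction. These shares were 26.2% in GATA3-KO, 1.91% in Rictor-KO and 38.1% in WT. Gpx4, which reduces lipid peroxides in membranes, rose in GATA3-KO (log2 fold change 0.62, edgeR adjusted p = 0.00239) and in WT (0.74, edgeR adjusted p = 0.00019), where it was at 147 and 168 CPM with isorhamnetin and at 95.3 and 93.1 CPM with DMSO. Glrx3 rose in GATA3-KO (0.34, edgeR adjusted p = 0.0447), and Glrx, cytosolic glutaredoxin, fell in WT (-1.34, edgeR adjusted p = 0.00457). A further list of superoxide dismutase, sestrin, methionine sulfoxide reductase and related genes had 7 tested, with no superoxide dismutase among them. These were Ccs, Sesn2, Msra, Msrb1, Msrb2, Park7 and Oxr1. Of these, Msrb1 rose in WT (0.94, edgeR adjusted p = 0.000572), and 0 passed in either knockout by edgeR. At an unadjusted p under 0.05, 1 was lower in GATA3-KO and 1 in Rictor-KO, and DESeq2 called 1 lower in GATA3-KO and 0 in Rictor-KO.

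The phagocyte NADPH oxidase makes the superoxide that these enzymes meet. Of its 6 subunit genes, Cybb, the catalytic subunit, fell with isorhamnetin in GATA3-KO (log2 fold change -0.28, edgeR adjusted p = 0.0295) and in WT (-0.61, edgeR adjusted p = 7.94e-05). The small GTPase subunit Rac2 fell in GATA3-KO (-0.55, edgeR adjusted p = 0.0105) and in WT (-1.19, edgeR adjusted p = 1.85e-05). In WT, Ncf4 also fell (-0.32, edgeR adjusted p = 0.0388). Of all genes, 15.9% fell in GATA3-KO and 18.3% in WT. Under DMSO, Cybb was at 271 and 255 CPM in GATA3-KO, at 485 and 478 CPM in Rictor-KO and at 1507 and 1514 CPM in WT, with log2 fold changes against WT of -2.52 (edgeR adjusted p = 3.5e-10) and -1.65 (edgeR adjusted p = 9.7e-09).

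Genes whose pattern lay nearest to a member's over the 12 libraries were found by the root mean square (RMS) difference of centred log2 CPM among 7619 genes. Srxn1, whose own RMS was 0.97, was nearest to Slc48a1, a heme transporter (0.19), Hmox1, heme oxygenase 1 (0.27), and Rnf128, a ubiquitin ligase (0.30). Cat, whose own RMS was 0.76, was nearest to Creg1 (0.21), Blvrb, biliverdin reductase B (0.23), and Gsr, glutathione reductase (0.27). Txnrd1, whose own RMS was 0.52, was nearest to Chpf2 (0.17), Slc38a7 (0.18) and Itpr2 (0.20). Sod2, whose own RMS was 0.39, was nearest to Stx6 (0.11), Anxa7 (0.12) and Mbtd1 (0.14). These are descriptions over libraries that share 3 lines and 2 treatments.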

How the data were processed

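Total RNA of J774.1 cells was sequenced as Illumina libraries, per the labels' protocols, and genotype and treatment, as labelled, put the 12 libraries into groups. For every library the authors deposited gene-level read counts in separate columns for exons, introns and uniquely placed reads. The build was GRCm38, per the submitters' processing notes, while neither aligner nor counting program is given in the sources used here. Among 12371 values of 1 to 4 exon reads, 81.3% were even, so both reads of a pair appear to be counted. The authors also deposited log2 fold changes with FDR values (adjusted p-values) for isorhamnetin against DMSO, by a test that no source used here names; only their calls were counted.

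The analysis of exon counts used R 4.3.3 and edgeR 4.0.16, whose filterByExpr kept 11808 of the 15156 genes that had any exon read. TMM scaling, 1 model with a mean for each of the 6 groups and the robust quasi-likelihood F test were used, with 6 residual degrees of freedom. Within a comparison, Benjamini-Hochberg adjustment of p-values ran over all genes, with a threshold of 0.05, and a gene past it is said to have risen or fallen, or to be higher or lower. Introns were fitted alike over 11450 genes of 16394 with a read. Standard errors (SE) come from the fit, and CPM are TMM-scaled. Alternatives were RLE size factors, DESeq2 1.42.0, unique reads only, no filter, the compared groups alone, a replicate block and each library left out, and the fit was tested on simulated counts. The gene lists and the members were chosen with earlier results of these data known. The rule for named list genes took, per comparison, up to 4 called genes by smallest p plus every gene where at most 5 moved in a direction, and the text prints those of the redox lists for isorhamnetin and for each knockout against WT under DMSO. The nearest patterns were sought for Srxn1, Txnrd1, Cat and Sod2, with 3 named each, among genes whose mean log2 CPM was 4 or more. Promoter windows are from RefSeq (GRCm38.p6), and exon borders from GENCODE M21. Results of 1 list gene are not reported here.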

Additional observations from a re-analysis of the deposited data

Results flagged for a closer look

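The response to isorhamnetin differed between a knockout and WT in 10 of 20 tests of the difference itself (edgeR adjusted p under 0.05, 2 libraries per group), 4 of 10 members in GATA3-KO minus WT and 6 of 10 in Rictor-KO minus WT, where 28.0% and 13.8% of all genes passed. For Srxn1 the log2 difference was -0.71 in GATA3-KO minus WT and -0.46 in Rictor-KO minus WT, and Srxn1 rose in every line. Prdx5 had 1.02 in GATA3-KO minus WT and 0.72 in Rictor-KO minus WT, and Sod2 had 0.80 in GATA3-KO minus WT and 0.88 in Rictor-KO minus WT. Sesn1 had -1.14 in GATA3-KO minus WT and -1.05 in Rictor-KO minus WT. Txnrd1 had 0.41 and Prdx1 had -0.54 in Rictor-KO minus WT. The Rictor-KO calls of Txnrd1, Prdx1 and Srxn1 were lost in some fits that left out 1 library. In those fits the log2 differences were 0.35 to 0.46 for Txnrd1, -0.56 to -0.41 for Prdx1 and -0.48 to -0.4 for Srxn1. All 10 share the WT libraries, and the knockout libraries held 766 to 1108 CPM of the inflammatory list, against 9712 and 11491 CPM in the WT DMSO pair. The part of that state in the differences was not tested.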

How the results depend on the processing

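No result that was called changed direction under any alternative run, and the cause of each change below was not tested. The labels state no batch or pairing, so the replicate numbers were not taken as pairs in the main fit. The correlation of same-numbered libraries' deviations was 0.38 in GATA3-KO, 0.74 in Rictor-KO and -0.08 in WT. With the replicate block, genes called with isorhamnetin came to 5175 in GATA3-KO and 1420 in Rictor-KO. Prdx5 in GATA3-KO and Txn1 in WT passed with the block as well. For the differences in response the block gave 5320 genes in GATA3-KO minus WT, 3601 in Rictor-KO minus WT, and 3172 with 5 members in GATA3-KO minus Rictor-KO. Those 5 were Txn1, Txnrd1, Prdx1, Prdx5 and Sod1. Under DMSO the block gave 5459 genes in GATA3-KO against Rictor-KO. It gave 8 members in Rictor-KO against WT, with Prdx1, Prdx5 and Cat among them, and Cat also passed in GATA3-KO against WT. DESeq2 called 424 genes in Rictor-KO, and 1054 genes and 2 members in GATA3-KO minus Rictor-KO, where the fit with no low-count filter called 233 genes. The compared groups alone gave 36 genes in Rictor-KO. Leaving out 1 library each, genes called with isorhamnetin ran from 544 to 3388 in GATA3-KO (members 3 to 7), 143 to 249 in Rictor-KO and 2567 to 4631 in WT. The differences ran from 1799 to 3523 genes in GATA3-KO minus WT, 779 to 1671 in Rictor-KO minus WT (members 3 to 6) and 0 to 1510 in GATA3-KO minus Rictor-KO (members 0 to 1). The 544 and 1799 were without the second GATA3-KO isorhamnetin library, the 143 without the first Rictor-KO isorhamnetin library, the 2567 without the second WT isorhamnetin library, the 779 without the second WT DMSO library, and the 1510 without the second GATA3-KO DMSO library. GATA3-KO against Rictor-KO under DMSO ran from 1688 to 3644 genes (members 2 to 6), with the lowest without the second GATA3-KO DMSO library. Members called in introns ran from 1 to 3 in GATA3-KO, 0 to 2 in Rictor-KO and 3 to 5 in WT. Outside these, the Txn1 and Sesn1 calls in GATA3-KO against WT under DMSO were lost with RLE size factors (adjusted p = 0.0615 and 0.0595), Sesn1 also by DESeq2 (0.0645). Sod1 with isorhamnetin was lost with no filter (0.0663 in GATA3-KO, 0.0504 in WT). Sesn1 had 488 to 1232 exon reads per library, and the Cat introns had as few as 4 reads. The part of depth in their values was not tested.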

Other observations

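The lists of other redox genes were also compared between the lines under DMSO (edgeR adjusted p in parentheses, 2 libraries per group, all sharing the WT DMSO libraries). Of all genes, 26.8% were higher and 27.1% lower in GATA3-KO than in WT, and 19.3% were higher and 20.7% lower in Rictor-KO. Of 7 glutathione peroxidase and glutaredoxin genes tested, 4 were higher and 0 lower in GATA3-KO, and 3 were higher and 1 lower in Rictor-KO. In either direction, 53.9% of all genes passed in GATA3-KO and 40.0% in Rictor-KO, so 4 of 7 in GATA3-KO is near the share of all genes. The count of 0 was also 0 at an unadjusted p under 0.05 and by DESeq2. Gpx4, which reduces lipid peroxides in membranes, had log2 fold changes of 0.92 in GATA3-KO (1.51e-05) and 0.76 in Rictor-KO (0.000121). Gpx1, the main cytosolic glutathione peroxidase, had 0.63 in GATA3-KO (0.000218) and 0.36 in Rictor-KO (0.0157). Glrx5, a mitochondrial glutaredoxin, had 0.83 in GATA3-KO (3.55e-06) and 0.28 in Rictor-KO (0.0227). Glrx2 had 0.35 in GATA3-KO (0.0425), and Glrx was lower in Rictor-KO, with -1.65 (0.00148).

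Of the 7 tested genes Ccs, Sesn2, Msra, Msrb1, Msrb2, Park7 and Oxr1, 4 were higher and 0 lower in GATA3-KO. In Rictor-KO 2 of them were higher and 1 lower. At an unadjusted p under 0.05, and by DESeq2, 0 were lower in GATA3-KO. In either direction 53.9% of all genes passed in GATA3-KO and 40.0% in Rictor-KO, so the counts of these 7 are near the share of all genes. Park7, the gene of the oxidation sensor DJ-1, had 0.92 in GATA3-KO (8.63e-07) and 0.63 in Rictor-KO (3.96e-05). Msrb2, a mitochondrial methionine sulfoxide reductase, had 0.75 in GATA3-KO (0.0195) and 1.04 in Rictor-KO (0.00374). In GATA3-KO, Ccs, the copper chaperone of Sod1, had 0.67 (0.000934) and Msrb1 had 0.70 (0.00275), and in Rictor-KO Msra had -0.92 (0.000508). Of the 13 further thioredoxin and peroxiredoxin genes, Prdx4 (0.52, 0.000825), Txndc12 (0.44, 0.00237) and Txnip (0.40, 0.000501) were higher in GATA3-KO, beside 26.8% of all genes. Txn2 (-0.29, 0.00443) and Txnrd2 (-0.28, 0.0486) were lower there, beside 27.1% of all genes. In Rictor-KO, where 19.3% of all genes were higher and 20.7% lower, Txndc9 was lower (-0.36, 0.0061). Of the 13, 0 were higher in Rictor-KO by edgeR, against 2 at an unadjusted p under 0.05 and 0 by DESeq2. Of the 6 NADPH oxidase genes, 4 were lower in GATA3-KO and 2 in Rictor-KO, where 27.1% and 20.7% of all genes were lower. Of the 6, 0 were higher in either knockout by edgeR, at an unadjusted p under 0.05 or by DESeq2. Beside Cybb the lower ones were Ncf1, with -0.92 (7.47e-07) in GATA3-KO and -0.31 (0.0077) in Rictor-KO, and, in GATA3-KO, Rac2 (-0.60, 0.00197) and Ncf4 (-0.47, 0.00304).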
